A study of Mus musculus with 24 samples.

Results

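The genes of hypoxia-inducible factor (HIF) oxygen sensing were examined by RNA-Seq of the ductus arteriosus (DA) and of the ascending aorta, dissected from mouse embryos with and without Prdm6 in neural crest-derived cells. The set holds 10 genes, chosen by name from the known pathway, out of 54752 genes in the deposited table. Its members are the prolyl hydroxylase genes Egln1, Egln2 and Egln3, the asparaginyl hydroxylase gene Hif1an, the alpha subunit genes Hif1a, Epas1 and Hif3a, the beta subunit genes Arnt and Arnt2, and Vhl. All 10 passed the filter on low counts that left 16463 genes for testing. The set was chosen with earlier results of these data known, so counts of its members against all genes are descriptive only.

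HIF is a pair of bHLH-PAS proteins, an alpha subunit whose stability depends on oxygen and a beta subunit (ARNT) that does not. While oxygen is at hand, the prolyl hydroxylases (PHD proteins, products of the Egln genes) hydroxylate the alpha subunit, the VHL protein then binds it as the recognition part of a ubiquitin ligase, and the proteasome degrades it. The asparaginyl hydroxylase FIH, encoded by Hif1an, blocks the coactivator contact of the alpha subunit, and Egln3 is itself a well-known HIF target gene. The DA is the fetal vessel between the pulmonary artery and the aorta, and its smooth muscle contracts when oxygen rises at birth. These regulatory steps act on proteins, whereas the measurements here are of transcripts.

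The 4 groups were vessels of C57BL/6-background embryos taken at E18.5. The Prdm6-deficient embryos were Wnt1Cre;PRDM6f/f, in which a Wnt1 promoter drives Cre in neural crest cells and deletes both floxed Prdm6 alleles there, and they gave 5 DA and 5 aorta libraries. The controls were littermates and gave 7 DA and 6 aorta libraries. Of these, 5 DA and 5 aorta libraries were PRDM6wt/f without Cre, 1 DA library was PRDM6wt/wt, and control DA replicate 2 and control aorta replicate 3 came from 1 Wnt1Cre;PRDM6wt/wt animal. No control carried Cre together with a floxed allele. Prdm6-deficient DA replicates 1 and 2 were pools of 2 embryos each, and the replicate numbered 4 in that group was not analysed here. The animal numbers fall into an earlier and a later run, called the first and second series. The DA had 3 Prdm6-deficient and 2 control libraries in the first series and 2 and 5 in the second, while the aorta had 2 and 1 in the first and 3 and 5 in the second.

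Total expected counts per library were 15163974 to 22610547, at which 3 counts equal 0.133 to 0.198 CPM (counts scaled to a fixed library total). All levels below are CPM scaled by the TMM method, given as mean ± SD over libraries unless stated otherwise. Prdm6 itself, counted over the whole gene, was 108 ± 16.3 CPM in control and 72.7 ± 8.50 CPM in Prdm6-deficient DA, and 113 ± 16.2 against 70.3 ± 6.95 CPM in the aorta, with no overlap between genotypes in either vessel. The smooth muscle genes that define the vessel wall were abundant in all 23 libraries, with 8 markers summing to between 8511 and 23958 CPM. Control aorta replicate 4 stood apart from the other control aortas. It held 7.91 CPM of the melanocyte gene Dct, against a median of 0.0766 CPM in the control aorta, where the control DA had a median of 51.4 CPM. It also held the most Tyrp1 (2.84 CPM), Myh11 (773 CPM), Egln3 (107 CPM) and Arnt2 (11.8 CPM) of the control aortas. Its Hif3a (77.8 CPM) and Epas1 (41.6 CPM) lay within the range of the others.

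The regions just upstream of 2 prolyl hydroxylase genes are shown because these neighbours in function moved so differently. Both sequences are the 250 bases before the RefSeq transcription start on GRCm38.p6, read 5′ to 3′ on the gene's own strand. Capitals mark ACGTG or GCGTG on either strand, the letters of the core HIF-binding motif. Egln3 lies at chr12:54203875-54204124 on the minus strand and Egln2 at chr7:27166803-27167052 on the minus strand.
Egln3: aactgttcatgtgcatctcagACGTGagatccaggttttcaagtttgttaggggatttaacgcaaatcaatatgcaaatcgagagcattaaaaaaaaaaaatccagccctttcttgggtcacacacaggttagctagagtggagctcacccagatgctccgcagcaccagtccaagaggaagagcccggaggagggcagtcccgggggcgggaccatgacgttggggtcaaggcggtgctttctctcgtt
Egln2: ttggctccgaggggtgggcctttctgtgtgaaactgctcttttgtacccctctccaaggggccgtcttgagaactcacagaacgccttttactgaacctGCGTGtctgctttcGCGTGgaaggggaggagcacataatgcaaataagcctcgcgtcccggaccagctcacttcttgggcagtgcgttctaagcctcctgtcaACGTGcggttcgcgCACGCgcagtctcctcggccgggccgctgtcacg
Egln3 held 1 match, an ACGTG whose first base lies at -229 from the start, and Egln2 held 4, of which 1 was ACGTG and 3 were GCGTG. In windows of 300 bases, which reach 50 bases past the start, Egln3 held 1 ACGTG and 0 GCGTG, and this Egln2 start 3 of each. A second Egln2 start, with its window at chr7:27165679-27165978, held 0 ACGTG and 1 GCGTG, and Egln1 held 1 of each. Of 32851 promoter windows of 300 bases, 43.8% held at least 1 of the motifs on either strand, so a match is common. Windows were found for 9 of the 10 members, Epas1 having none.

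Egln3 was the member that set the control DA apart. Control DA held 414 ± 147 CPM (n = 7) and Prdm6-deficient DA 39.1 ± 5.70 CPM (n = 5), against 62.5 ± 23.9 CPM in control aorta (n = 6) and 58.1 ± 17.8 CPM in Prdm6-deficient aorta (n = 5). In the control DA the lowest library held 238 CPM, the median was 386 CPM and the highest held 632 CPM. The 5 Prdm6-deficient DA libraries held 33.1, 34.5, 46.0, 37.9 and 44.0 CPM. Every control DA library therefore lay above every library of the other 3 groups, the nearest of these being control aorta replicate 4 at 107 CPM.

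In the comparison of the genotypes within the DA, Egln3 fell by 3.40 on the log2 scale (SE 0.26), a 10.6-fold lower level, with an adjusted p of 1.7e-09 in edgeR's quasi-likelihood test (Benjamini-Hochberg adjustment over all tested genes). It was the 1 member of 10 past the threshold, for which the adjusted p had to be under 0.01 and the log2 difference larger than 0.5 either way. Of all tested genes 5.43% passed it, 2.61% as higher and 2.82% as lower. Only Egln3 had no overlap between the genotypes, against 5.66% of tested genes. By the size of the change it ranked 210 among the 16463 genes. In bulk tissue, fewer cells of a type and less RNA per cell cannot be told apart. The difference was -3.60 in first-series and -3.31 in second-series libraries, and lay between -3.50 and -3.27 when any 1 library was left out.

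**Figure D1:**
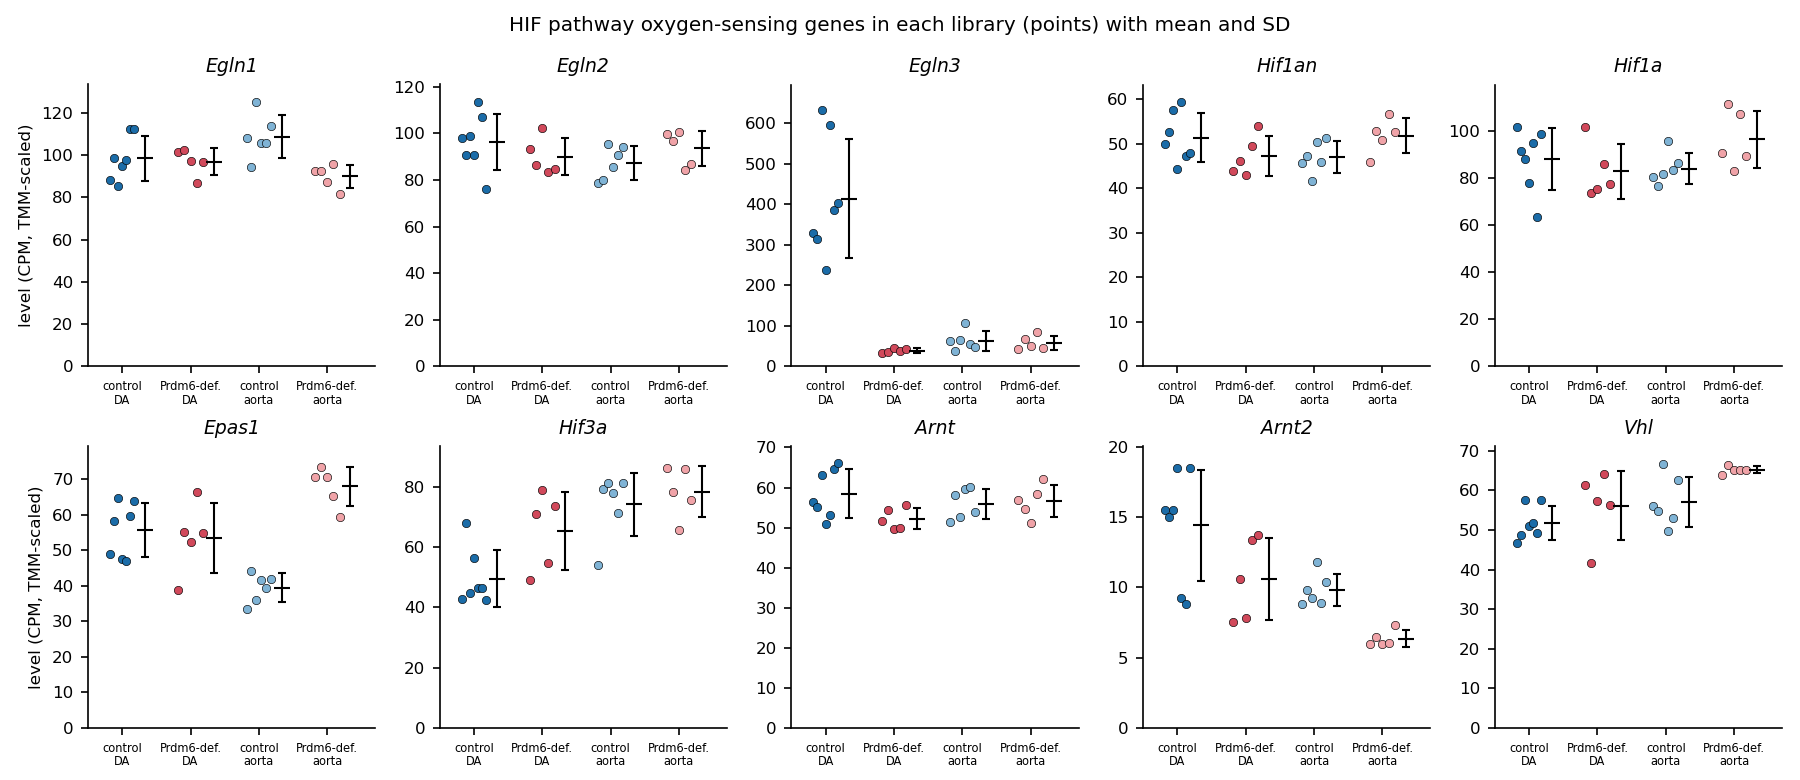
Level of each of the 10 genes (vertical axis, TMM-scaled CPM, from 0) in the 4 groups, with 1 point per library and the mean and SD beside them. Egln3 stands at 238 to 632 CPM in control DA and at or below 107 CPM elsewhere, Epas1 is higher in Prdm6-deficient than in control aorta without overlap, and most other genes overlap between all groups.

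In the control embryos the vessels differed as well. Compared with the aorta, the control DA held 6.62-fold more Egln3 (log2 2.73, SE 0.23, adjusted p = 5.2e-09 by edgeR). In the Prdm6-deficient embryos the DA value lay below the aorta value (log2 -0.57, 95% interval -1.09 to -0.05), which did not pass the test (edgeR adjusted p = 0.42). Within the aorta the genotypes differed by a log2 value of -0.11 with an interval of -0.59 to 0.38 (edgeR adjusted p = 0.96), so a change of the size seen in the DA lies outside that interval. The genotype effect differed between the vessels by -3.30 (SE 0.34, edgeR adjusted p = 9.6e-07). These comparisons share groups, and the DA genotype and control vessel comparisons both rest on the 7 control DA libraries.

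Egln3 could also be followed within animals, since 6 control animals gave both vessels. The DA to aorta ratio of Egln3 in them was 5.30, 4.78, 2.23, 12.7, 10.3 and 7.18. The lowest ratio belonged to the animal of control aorta replicate 4, whose aorta held the most Egln3 of all control aortas. The Prdm6-deficient animals gave 0.915 and 0.976 where a single DA was matched to its own aorta, and 0.812 and 0.508 where the pooled DA replicate 2 was set against the aortas of its 2 embryos. Every control ratio was above 2 and each Prdm6-deficient ratio below 1. With the animal as a block in the 6 control animals, the vessel difference was 2.62 (edgeR adjusted p = 8.6e-05).

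**Figure D2:**
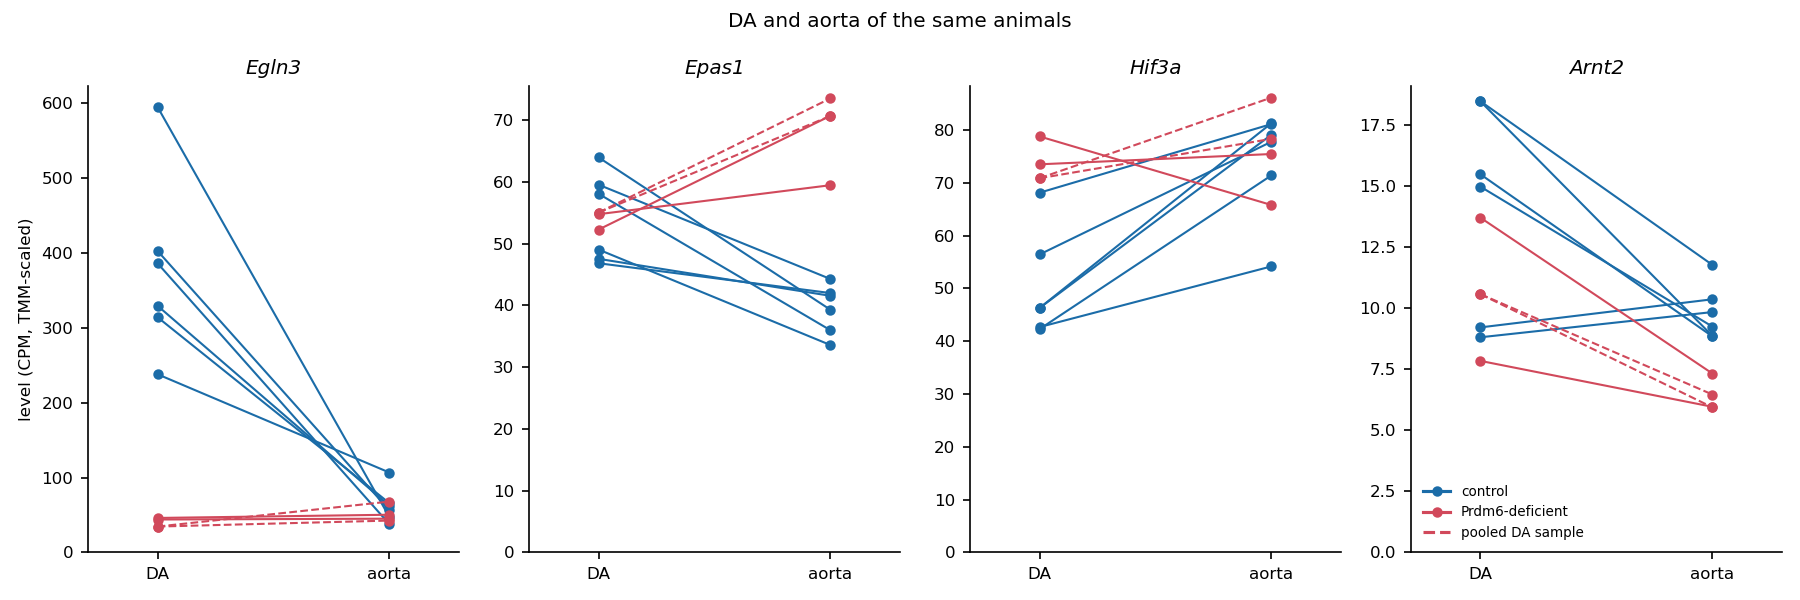
Level (vertical axes, TMM-scaled CPM, from 0) of Egln3, Epas1, Hif3a and Arnt2 in the DA and the aorta of the same animals, 1 line per pair, with dashed lines for the pooled Prdm6-deficient DA sample joined to the aorta of each of its embryos. Egln3 and Epas1 drop from DA to aorta in all 6 control animals, while Epas1 is higher in the aorta in all 4 Prdm6-deficient pairs.

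The other prolyl hydroxylases did not share this pattern. Egln1, which encodes PHD2, the main regulator of HIF-1α stability in most cells, was 98.5 ± 10.6 and 96.9 ± 6.22 CPM in control and Prdm6-deficient DA, and 109 ± 10.1 and 89.9 ± 5.51 CPM in the aorta. Its DA genotype difference was -0.02 (95% interval -0.18 to 0.14). Its aorta difference of -0.27 (SE 0.08) had an edgeR adjusted p of 0.046 and did not pass the threshold, the genotypes overlapping at 94.5 CPM in the lowest control and 95.7 CPM in the highest Prdm6-deficient aorta. Egln2, which encodes PHD1, was between 87.4 and 96.4 CPM in the 4 group means. The log2 differences of Egln2 ran from -0.10 to 0.14 in the pairwise comparisons, with intervals inside -0.27 to 0.31. Hif1an was between 47.0 and 51.9 CPM in the group means, with pairwise differences from -0.13 to 0.14.

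Levels of different genes are compared here per kilobase of merged exons. On that scale Egln3 was the most abundant member in control DA, at 156 ± 55.2 CPM per kb, with no overlap with Egln2 next in order at 34.4 ± 4.35. In Prdm6-deficient DA the order began with Egln2 at 32.2 ± 2.81, Egln1 at 27.0 ± 1.73 and Vhl at 18.7 ± 2.90, and Egln3 at 14.7 ± 2.14 CPM per kb did not separate from its neighbours Vhl and Hif1a. In both aorta groups Egln3 overlapped its neighbours Egln1 and Vhl. Arnt2 was the lowest member in each group, at 0.825 to 1.87 CPM per kb, and overlapped none of the others.

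Of the summed per-kilobase level of the 3 prolyl hydroxylases, Egln3 made up 70.1% ± 6.71 in control DA, 19.9% ± 2.39 in Prdm6-deficient DA, 27.1% ± 7.09 in control aorta and 26.8% ± 6.02 in Prdm6-deficient aorta. The lowest control DA library had a share of 60.3% and the highest library of any other group 40.1%. The sum itself was 217 ± 56.7 CPM per kb in control DA and 73.8 to 85.0 CPM per kb in the other group means. These are transcript shares and say nothing of enzyme activity. The transcripts of Egln3 share no identical run longer than 19 bases with those of Egln1 or Egln2, and all expected counts of the 3 genes were whole numbers.

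**Figure D3:**
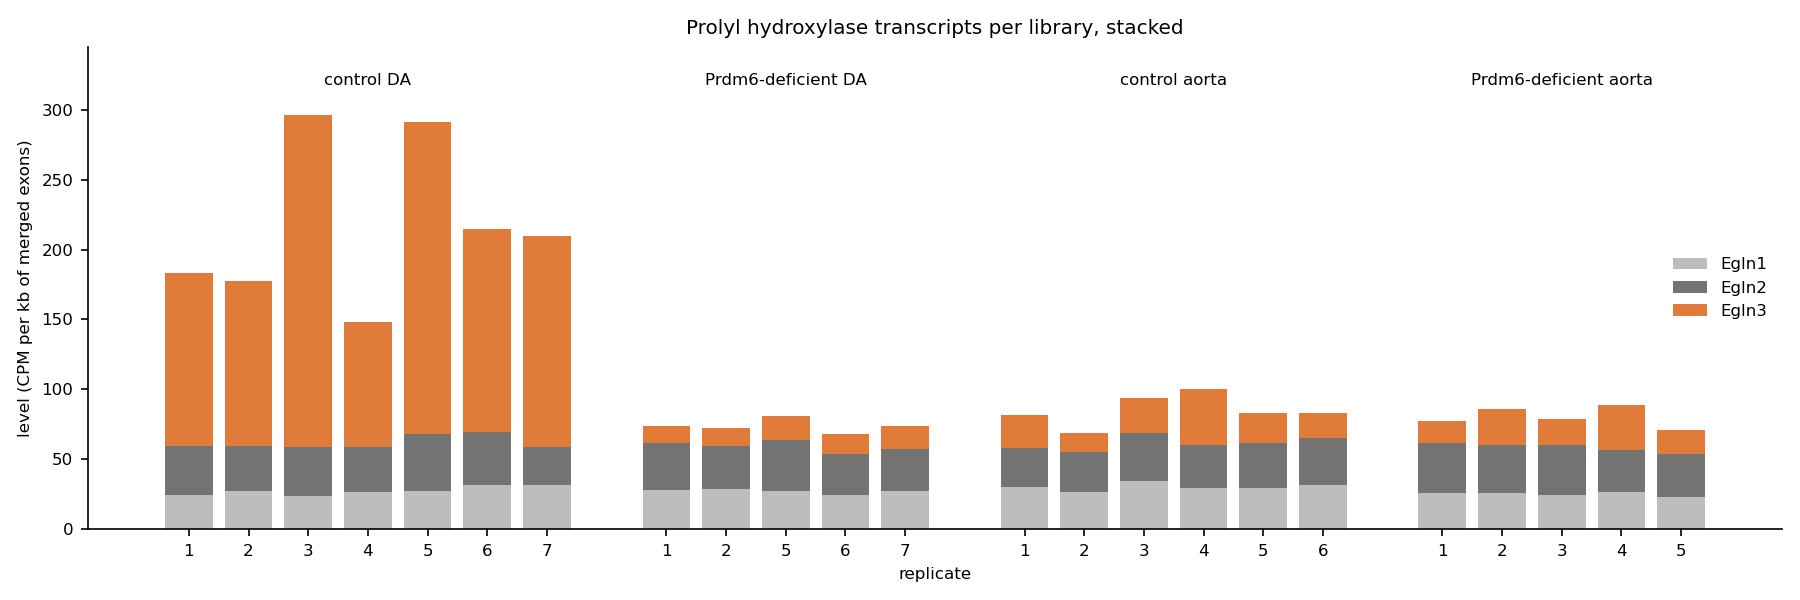
Stacked level of Egln1, Egln2 and Egln3 per library (vertical axis, CPM per kb of merged exons, from 0; horizontal axis, replicate within each group). The Egln1 and Egln2 segments are of similar height in all libraries, and the Egln3 segment is taller than the other segments together only in the 7 control DA libraries, whose sums run from 148 to 297.

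Among the alpha subunits, Epas1 differed between the genotypes in the aorta and not in the DA. Epas1 encodes HIF-2α, the form known from endothelium. It was 39.4 ± 4.02 CPM in control aorta, with a lowest library of 33.6, a median of 40.4 and a highest of 44.3 CPM. The Prdm6-deficient aortas held 70.7, 73.5, 70.7, 65.3 and 59.5 CPM, a mean of 67.9 ± 5.60. The groups did not overlap, and Epas1 rose by 0.78 (SE 0.11), a 1.72-fold higher level, with an edgeR adjusted p of 3.9e-05.

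This made Epas1 the 1 member of 10 past the threshold in the aorta, where 2.45% of tested genes passed, 1.63% as higher and 0.826% as lower. Within the second series the rise was 0.76 (edgeR adjusted p = 0.0012), and the first series held 1 control aorta, too few for the comparison. Epas1 and Arnt2 were the 2 members without overlap between the aorta genotypes, against 6.95% of tested genes. In the DA, Epas1 was 55.7 ± 7.71 CPM with and 53.4 ± 9.83 CPM without Prdm6 (log2 -0.06, 95% interval -0.29 to 0.17). The genotype effect differed between the vessels by -0.84 (SE 0.16, edgeR adjusted p = 0.0012). Within the second series alone that difference was -0.72 with an adjusted p of 0.054.

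Endothelial markers moved in the same comparison as Epas1. Of 8 endothelial markers, Tek, Tie1 and Emcn rose in the Prdm6-deficient aorta and none fell, where 1.63% of tested genes were called higher. The median log2 difference over the 8 markers was 0.51, against -0.00 over all genes. Their summed level ran from 750 to 1277 CPM in control and from 1032 to 1575 CPM in Prdm6-deficient aorta, and no marker was at 0. Per 1000 CPM of these markers, Epas1 was 42.4 ± 7.54 in control aorta and 51.4 ± 9.69 in Prdm6-deficient aorta, with ranges of 30.8 to 54.1 and 45.0 to 68.5 that overlapped. In the DA, 0 of the 8 markers passed between the genotypes, with median sums of 1013 CPM in control and 1208 CPM in Prdm6-deficient DA. The part of these markers in the Epas1 difference was not tested.

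Between the vessels of control embryos, Epas1 was higher in the DA by 0.497 on the log2 scale (edgeR adjusted p = 0.0017), just under the fold limit of 0.5. The lowest control DA library, at 46.8 CPM, lay above the highest control aorta. The threshold was passed under 9 of the 36 alternatives, of which 1 set no fold limit and 1 was DESeq2 at 0.51. Without Prdm6 the DA lay below the aorta by -0.35 (SE 0.12), which missed the threshold with an edgeR adjusted p of 0.23.

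Hif3a encodes the alpha subunit that includes inhibitory isoforms. It was the second member past the threshold between the vessels of control embryos, with a lower level in the DA of 49.5 ± 9.46 CPM against 74.2 ± 10.4 CPM in the aorta (log2 -0.58, SE 0.12, edgeR adjusted p = 0.0015; -0.64 within the second series). In the control DA the lowest, median and highest libraries held 42.3, 46.3 and 68.1 CPM, and in the control aorta 54.2, 78.5 and 81.3 CPM. The groups overlapped through control DA replicates 2 and 4 and control aorta replicate 1.

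Thus Egln3 was the higher and Hif3a the lower of the members in control DA, 2 of 10 members where 5.36% of tested genes passed, 3.16% as higher and 2.19% as lower. Egln3 and Epas1 were the 2 members without overlap in that comparison, against 5.36% of tested genes. The labels report smaller amounts of total RNA from the DA than from the aorta, and input and vessel cannot be told apart. In the Prdm6-deficient DA, Hif3a was 65.3 ± 12.9 CPM. The libraries held 48.9, 70.9, 78.8, 54.6 and 73.5 CPM, of which 3 lay above all 7 controls. The difference of 0.40 (SE 0.13) had an edgeR adjusted p of 0.041 and did not pass the threshold. It was 0.11 in the first and 0.63 in the second series.

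Hif1a, which encodes the most widely expressed alpha subunit, was 87.9 ± 13.3 and 82.7 ± 11.7 CPM in control and Prdm6-deficient DA, and 83.9 ± 6.56 and 96.3 ± 12.2 CPM in the aorta. None of its comparisons passed the test, and its pairwise differences ran from -0.22 to 0.20. Of the summed per-kilobase level of the 3 alpha subunits, Hif1a was the largest part, at 40.6 to 46.1% in the group means. The Epas1 part was 21.8% ± 1.44 in control aorta and 30.4% ± 2.73 in Prdm6-deficient aorta. The Hif3a part was 22.9% ± 3.99 in control DA and 34.1% ± 2.90 in control aorta. Exons of Hif1a overlap the antisense gene Gm15283 by 330 bases and the same-strand gene Gm49321 by 148 bases. The counting was not stated to use the strand, so the Hif1a values carry that uncertainty. Gm15283 and Gm49321 averaged 0.87 and 1.4 expected counts per library, against a total of 39685 for Hif1a over all 23 libraries.

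The beta subunit Arnt, the common partner of the alpha subunits, was 52.3 to 58.5 CPM in the group means and passed no test, with a DA genotype difference of -0.16 (95% interval -0.32 to -0.00). Arnt2, its homologue known from neural tissue, was low in both vessels. It was 14.4 ± 3.95 CPM in control and 10.6 ± 2.92 CPM in Prdm6-deficient DA, 9.81 ± 1.12 CPM in control aorta and 6.34 ± 0.58 CPM in Prdm6-deficient aorta. The aorta genotypes did not overlap, the highest Prdm6-deficient library at 7.32 CPM lying below the lowest control at 8.84 CPM. The difference of -0.63 (SE 0.21) nevertheless had an edgeR adjusted p of 0.090. The control vessel difference of 0.55 (SE 0.19) had an adjusted p of 0.060. Arnt2 exons overlap the antisense gene Gm30873 by 214 bases.

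Vhl, the substrate-binding subunit of the ubiquitin ligase, was 51.8 ± 4.25 and 56.2 ± 8.70 CPM in control and Prdm6-deficient DA. In the aorta it was 57.1 ± 6.29 and 65.2 ± 0.91 CPM, with a difference of 0.19 (95% interval -0.00 to 0.38, edgeR adjusted p = 0.38). None of its comparisons passed the test. The 5 genes listed for the ligase (Vhl among them) gave 0 calls in each of the 5 comparisons with edgeR, DESeq2 and limma-voom alike. Of all tested genes edgeR called 0.267% to 5.43% across the comparisons, so 0 of 5 lies near that share. Of the 5 genes, 1, 0, 2, 3 and 1 had an unadjusted p under 0.05.

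Between the vessels of Prdm6-deficient embryos, 0 of the 10 members passed with edgeR, DESeq2 or limma-voom, where edgeR called 0.267% of tested genes, 0.152% as higher and 0.115% as lower. At an unadjusted p under 0.05 there were 4, namely Egln3, Epas1, Arnt2 and Vhl. Arnt2 was the 1 member without overlap in that comparison, against 3.52% of tested genes, with a difference of 0.74 (SE 0.22, edgeR adjusted p = 0.13). In the test of whether the genotype effect differed between the vessels, Egln3 and Epas1 passed, 2 of 10 members where 2.58% of tested genes passed, 0.917% as higher and 1.66% as lower. The median difference over the 10 members was -0.09 in the DA genotype comparison and 0.09 in the aorta, against 0.01 and -0.00 over all tested genes. For the 9 members not past the threshold in the DA, the intervals reached from -0.85 to 0.67.

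**Figure D4:**
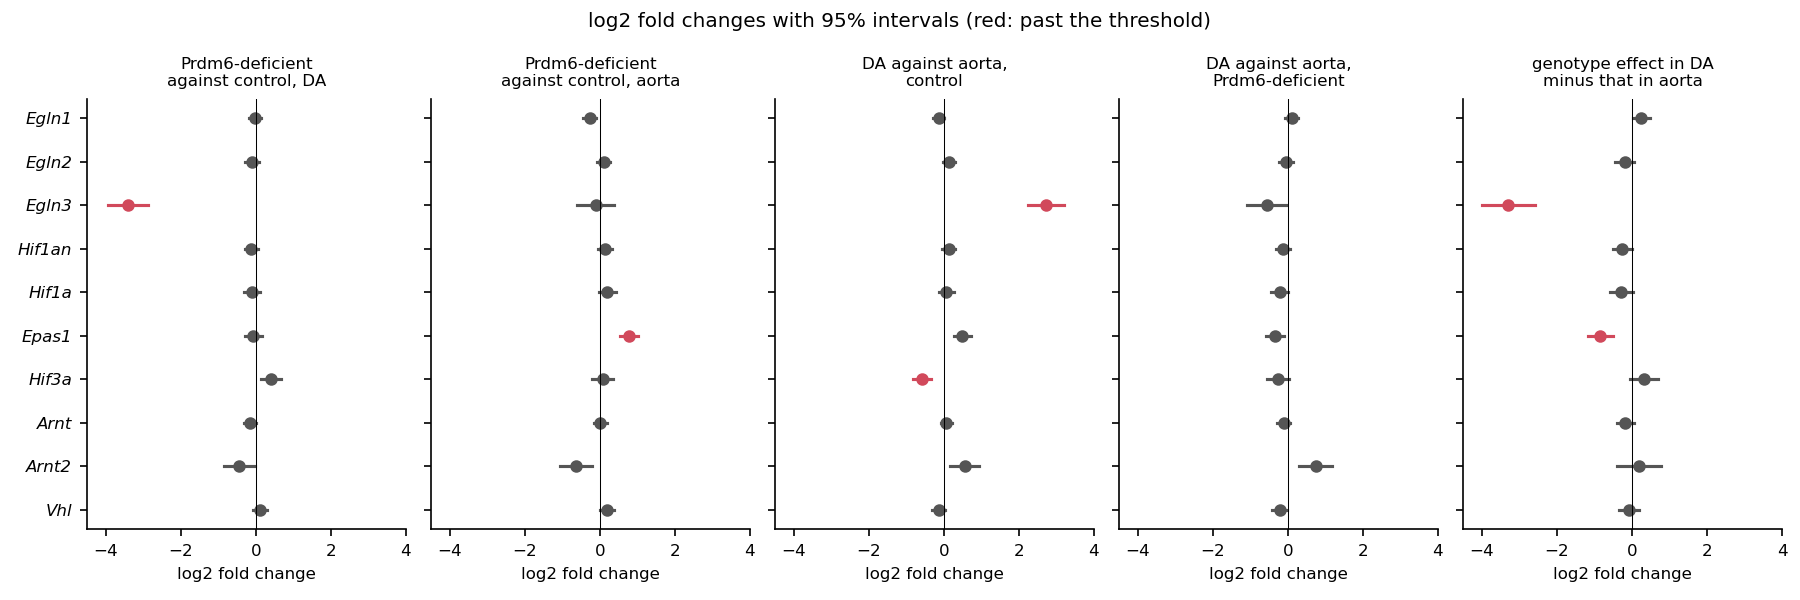
Log2 fold change of the 10 genes (horizontal axes) in the 5 comparisons, with points for the edgeR estimate and lines for the 95% interval, in red where the threshold was passed. Egln3 lies far from 0 in 3 panels, at -3.40, 2.73 and -3.30, Epas1 at 0.78 and -0.84 and Hif3a at -0.58 are the other red points, and the remaining points are grey.

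Around these members, some other regulators of HIF differed between the DA genotypes. Of 12 tested, 1 rose and 2 fell in the Prdm6-deficient DA, where 5.43% of all tested genes passed, and 8 had an unadjusted p under 0.05. With the DA libraries fitted alone 1 of the 12 passed, as within the second series, and within the first series 0 passed. Siah2, a ubiquitin ligase that targets prolyl hydroxylases including PHD3 for degradation, fell from 10.3 ± 2.34 to 4.88 ± 0.81 CPM (log2 -1.08, SE 0.21, edgeR adjusted p = 7.7e-04), though the adjusted p was 0.013 when the DA libraries were fitted alone. It passed in neither series, at -1.16 in the first (adjusted p = 0.16) and -1.07 in the second (adjusted p = 0.076). Hsp90aa1, a chaperone that stabilizes HIF-1α, fell from 562 ± 66.1 to 394 ± 28.1 CPM (log2 -0.52), close to the fold limit, and lay under it at -0.45 without control DA replicate 3 and at -0.495 without Prdm6-deficient DA replicate 5. It also passed in neither series, at -0.68 (adjusted p = 0.040) and -0.41.

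Cited2, which competes with HIF for its coactivators, rose from 13.7 ± 4.47 to 28.9 ± 13.2 CPM (log2 1.08, SE 0.24, edgeR adjusted p = 0.0029). The rise rested on Prdm6-deficient DA replicates 2 and 7, both of the second series, without either of which the adjusted p was 0.018 and 0.020. Within the first series it was 0.30. In the aorta and between the vessels, 0 of the 12 regulators passed with edgeR, DESeq2 or limma-voom. Of all tested genes edgeR called 2.45% in the aorta, 5.36% between the control and 0.267% between the Prdm6-deficient vessels. An unadjusted p under 0.05 was found for 1 regulator in the aorta and 3 between the control vessels. The 1 in the aorta was Hsp90aa1, lower without Prdm6 (log2 -0.40, edgeR adjusted p = 0.0019) and without overlap, missing only the fold limit. Its genotype effect did not pass as different between the vessels (-0.12, edgeR adjusted p = 0.70). The 9 other bHLH-PAS genes tested also gave 0 edgeR calls in each comparison, where 0.267% to 5.43% of all tested genes passed. DESeq2 and limma-voom each called 1 of these between the control vessels, where 2 had an unadjusted p under 0.05.

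Of the 21 glycolytic genes counted as HIF targets, Pfkp, the platelet-type phosphofructokinase, was the 1 gene past the threshold, both by the DA genotypes (log2 -1.04, SE 0.11) and by the control vessels (log2 1.20, SE 0.11). A count of 1 in 21 lies near the 5.43% and 5.36% of all tested genes that passed in these comparisons, and 6 of the 21 had an unadjusted p under 0.05 in each. It was 114 ± 21.2 CPM in control DA and 47.1 to 55.3 CPM in the other group means, without overlap. In the aorta 0 of the 21 passed with edgeR, DESeq2 or limma-voom, where edgeR called 2.45% of all tested genes. There, 4 of the 21 had an unadjusted p under 0.05. The median difference of the list in the DA genotype comparison was 0.09, against 0.01 over all genes.

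The remaining HIF target genes moved both ways. Of 28 tested, 3 rose and 2 fell in the Prdm6-deficient DA, where 5.43% of all tested genes passed. In the Prdm6-deficient aorta 2 rose and 1 fell, where 2.45% of all tested genes passed, and the count there became 6 with DESeq2 and 6 with the aorta libraries fitted alone. Higd1a, a mitochondrial protein induced by hypoxia, rose in both vessels, from 88.6 ± 16.0 to 192 ± 40.0 CPM in the DA (log2 1.12) and from 53.7 ± 7.75 to 256 ± 33.3 CPM in the aorta (log2 2.25, SE 0.14, edgeR adjusted p = 1.9e-11). The genotype effect on Higd1a differed between the vessels by -1.14 (SE 0.19, edgeR adjusted p = 2.3e-04). Plod2, a collagen lysyl hydroxylase, also rose in both, by 0.73 and 0.56, though its DA rise was 0.40 within the second series and missed the threshold there (adjusted p = 0.012). Ndrg1 rose in the DA from 70.5 ± 18.2 to a mean of 134 CPM (log2 0.92, SE 0.13).

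Stc2, which encodes stanniocalcin 2, fell in both vessels, by 1.52 in the DA and 1.79 in the aorta. Edn1, which encodes the vasoconstrictor endothelin 1, fell in the DA from 69.2 ± 17.3 to 31.4 ± 5.86 CPM (log2 -1.14, SE 0.18, edgeR adjusted p = 3.7e-05). In the aorta it was 34.6 ± 9.57 against 53.8 ± 4.88 CPM (log2 0.64, edgeR adjusted p = 0.029), and the genotype effect differed between the vessels by -1.78. The Edn1 difference in the aorta passed the threshold with DESeq2, with the aorta libraries alone and without control aorta replicate 5. Per 1000 CPM of the endothelial markers, Edn1 was 66.3 ± 18.8 in control and 25.5 ± 3.04 in Prdm6-deficient DA, ranges that did not overlap.

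Between the control vessels, 3 of the 28 were higher in the DA and 2 lower, where 3.16% of all tested genes were called higher and 2.19% lower. Higd1a (log2 0.72), Loxl2, a lysyl oxidase-like enzyme (0.71), and Edn1, by the means above, were higher, and Ndrg1 (-0.78) and Car9, carbonic anhydrase 9 (-1.56), were lower. Car9 was outside the rule for naming and was chosen after its values were seen; without control aorta replicate 1 its adjusted p was 0.022, and within the second series 0.030. Between the Prdm6-deficient vessels 0 of the 28 passed with edgeR, where 0.267% of all tested genes did. With limma-voom 0 passed, DESeq2 called 1, and 8 had an unadjusted p under 0.05.

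Ndufa4l2, a HIF target that lowers mitochondrial complex I activity and 1 of 5 tested genes listed for acute oxygen sensing by mitochondria, ran opposite to Egln3. It was 20.2 ± 10.3 CPM in control and 79.7 ± 13.8 CPM in Prdm6-deficient DA, a rise of 1.98 (SE 0.26, edgeR adjusted p = 3.1e-06) without overlap. Of the 5 listed genes Ndufa4l2 alone passed there, where 5.43% of all tested genes did. The control and Prdm6-deficient aortas held 41.1 ± 12.2 and 43.2 ± 6.37 CPM. The control vessels differed by -1.03 (edgeR adjusted p = 0.0048), and this missed the threshold when any 1 of 6 libraries was left out, namely control DA replicates 3 and 7 and control aorta replicates 1, 2, 3 and 6, with adjusted p-values from 0.010 to 0.022.

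**Figure D5:**
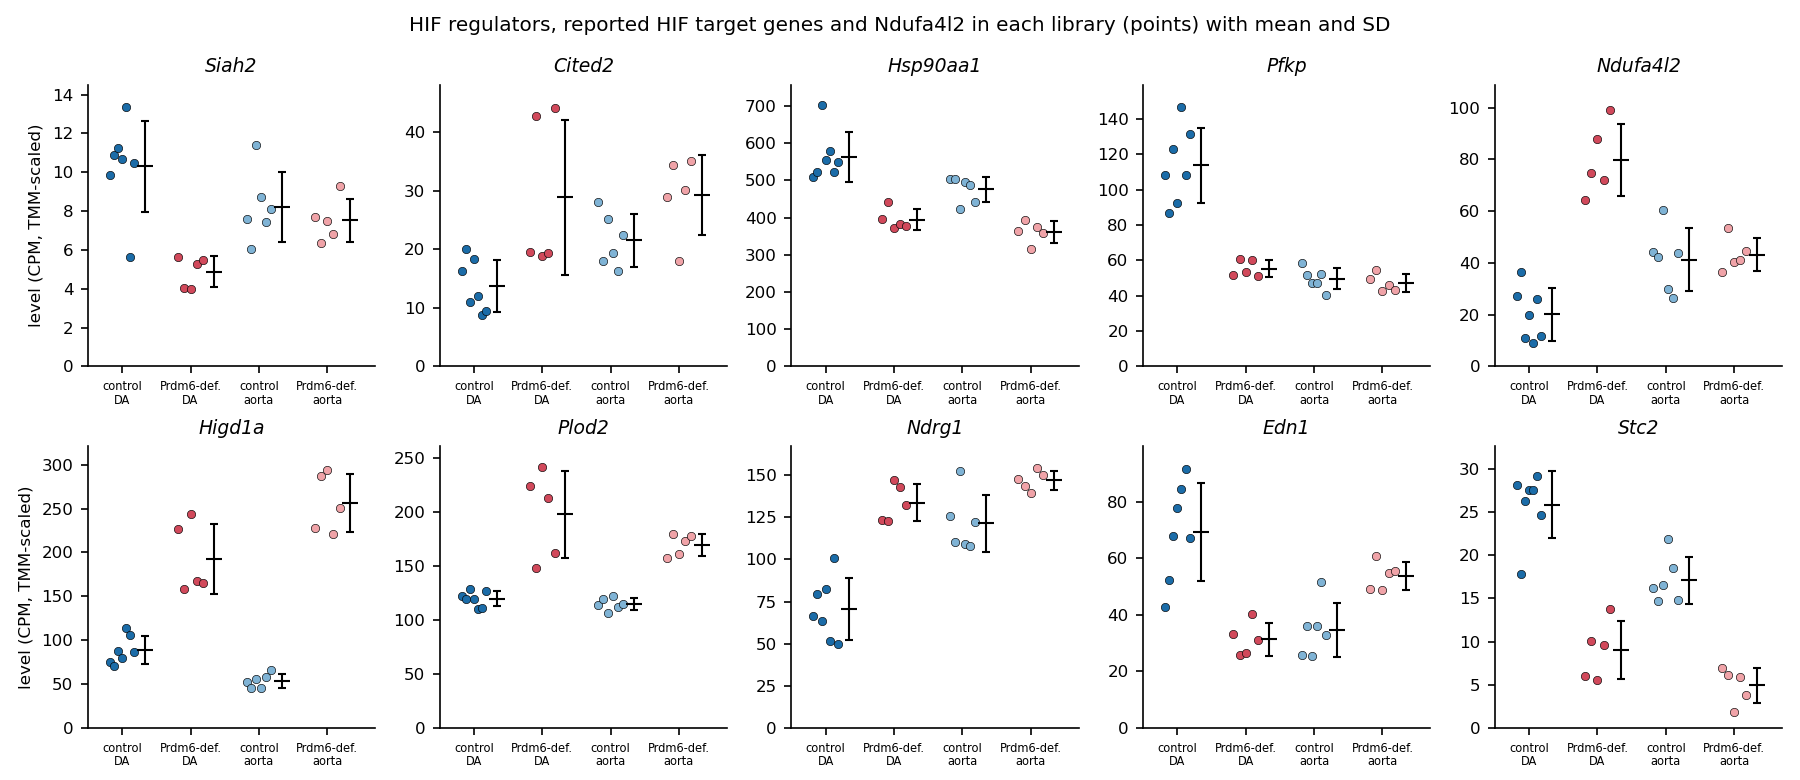
Level (vertical axes, TMM-scaled CPM, from 0) of 10 other genes of the HIF pathway in the 4 groups, 1 point per library with the mean and SD beside them. Siah2, Hsp90aa1, Pfkp, Edn1 and Stc2 are lower and Cited2, Ndufa4l2, Higd1a, Plod2 and Ndrg1 higher in Prdm6-deficient than in control DA, with Cited2 split between 2 high and 3 lower libraries.

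Markers of several cell types differed between the DA genotypes, some falling and some rising, where 5.43% of all tested genes passed. In the skeletal muscle, Schwann cell and fibroblast lists given below, 1 of 6 markers passed, which alone does not show a change of that cell type. The median log2 differences of these lists were -1.12, 1.07 and 0.30, against 0.01 over all genes, and were not tested. The 8 smooth muscle markers summed to 13544 to 23958 CPM in control and 9770 to 11797 CPM in Prdm6-deficient DA, and 6 of them fell. Per 1000 CPM of these markers, Egln3 was 22.2 ± 4.70 in control and 3.67 ± 0.54 in Prdm6-deficient DA, 5.96 ± 2.09 in control aorta and 5.72 ± 2.09 in Prdm6-deficient aorta. The lowest control DA library, at 14.1, lay above the highest of the other groups, at 9.89. As 6 of these markers fell themselves, the ratio cannot separate cell number from RNA per cell.

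The 6 melanocyte markers summed to 32.2 to 229 CPM in control and 2.44 to 4.96 CPM in Prdm6-deficient DA, where 4 of them fell and Tyr was at 0 in each library. The 6 skeletal muscle markers had a median sum of 75.0 CPM in control and 26.1 CPM in Prdm6-deficient DA, and 1 of them, Ckm, fell. The 6 Schwann cell markers summed to 20.6 to 173 CPM (median 28.4) in control and 63.7 to 127 CPM (median 74.0) in Prdm6-deficient DA. Fabp7 among them rose. Of 5 brown adipocyte markers tested, Plin1 and Adipoq fell, Adipoq being at 0 in each Prdm6-deficient DA library, while the summed level of the list ran from 39.4 to 260 CPM in control and from 78.2 to 215 CPM in Prdm6-deficient DA. Of 6 fibroblast markers, Lum rose in the Prdm6-deficient DA and also in the Prdm6-deficient aorta, with sums of 6306 to 9927 CPM in control and 8759 to 10545 CPM in Prdm6-deficient DA. The part of these markers in the Egln3 difference was not tested. Without control aorta replicate 4, the aorta library with melanocyte transcripts, the control vessels differed in Egln3 by 2.95.

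The genes whose pattern was most like that of Egln3 were sought among 12979 genes by Pearson's r of log2 CPM over the 23 libraries. The 5 closest were AC160336.1 (r = 0.97), Chn1 (0.97), Gm26809 (0.96), Btc (0.96) and Ptger4 (0.96). Ptger4, the EP4 receptor for prostaglandin E2, was 195 ± 51.8 CPM in control and 22.2 ± 6.77 CPM in Prdm6-deficient DA. These coefficients mostly reflect the shared contrast between control DA and the other groups and describe these 23 libraries only.

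With the group means removed, the 5 closest genes were Kcnj8 (r = 0.78), Pip5k1b (0.75), Mxra7 (0.75), Ckb (0.74) and Actg2 (0.74). Kcnj8, a pore subunit of ATP-sensitive potassium channels, was 328 ± 94.6 CPM in control and 58.9 ± 10.5 CPM in Prdm6-deficient DA. Actg2, the gamma smooth muscle actin gene, shares reads with near-identical actin genes that the counting may divide. Libraries of a group with more Egln3 thus tended to hold more of these genes too, over points that share library preparation and cell makeup.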

How the data were processed

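RNA-Seq was done on microdissected vessels (low-input NEBNext Ultra II libraries, paired-end). Of 24 labelled samples, the 23 with counts were analysed here. The authors filtered reads for quality with the FASTX-Toolkit, removed adapters with tagdust, aligned reads to mm10 with STAR at default settings and deposited RSEM's expected counts for each gene, without scaling for depth or length. Versions of STAR and RSEM are not given in the sources used here. RSEM can divide reads between near-identical genes, and strand use was not stated. 0 columns were left without a sample.

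Expected counts were rounded and tested with edgeR 4.0.16 in R 4.3.3 (filterByExpr, TMM, quasi-likelihood test, 1 mean per vessel and genotype over all groups), with Benjamini-Hochberg adjustment over 16463 genes. A gene passed at an adjusted p under 0.01 together with a log2 difference above 0.5 either way, the limits the study used. SEs are the log2 difference divided by the square root of F, and intervals are 95%. Of 54752 gene identifiers, 54723 matched the mm10 annotation without their version. Promoter sequences are from RefSeq on GRCm38.p6. The members and lists were chosen with earlier results of these data known. Named genes are the members, at most 6 passing genes per list by smallest adjusted p, the 5 genes most like Egln3 on each of 2 scales (average log2 CPM 1 or more), and Prdm6. Labels call the samples biological replicates. The intervals rest on the edgeR SE, which reflects variation between libraries. PCR reads without molecular identifiers are not independent molecules. Alternatives were median-ratio size factors, no low-count filter, DESeq2 1.42.0, limma-voom (limma 3.58.1), other sample sets and blocks, each series alone, and leaving out each library. The scripts were tested on simulated data. Tables and plots used pandas 2.3.3 and matplotlib 3.10.9 in Python 3.11.15.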

Additional observations from a re-analysis of the deposited data

Results flagged for a closer look

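The genotype effect on Egln3 differed between the DA and the aorta by -3.30 on the log2 scale (edgeR adjusted p = 9.6e-07), with every Prdm6-deficient DA library below every control DA library and overlapping genotypes in the aorta. The genotype effect on Epas1 differed between the vessels by -0.84 (edgeR adjusted p = 0.0012), with all 5 Prdm6-deficient aortas above the 6 controls and overlapping genotypes in the DA. Control aorta replicate 1, at 54.2 CPM of Hif3a, lay apart from the other 5 control aortas, which held 71.4 to 81.3 CPM. This was the 1 such value among 40 groups of a member's libraries, where chance alone gives about 1 in 20. The cause of these values was not tested.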

How the results depend on the processing

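All calls on members held under every alternative that could be run (34 to 36 per call), except that Epas1 no longer passed in the difference of the genotype effect within the second series, where 1 member (Egln3) was left in place of 2. Without a fold limit and at an adjusted p under 0.05, 2 members passed in the DA genotype comparison (Egln3 and Hif3a) and 2 in the aorta (Egln1 and Epas1). No value changed direction past the threshold. Leaving out any 1 library gave 1 member in the DA, 1 in the aorta, 2 to 3 between the control vessels (Epas1 being the third), 0 between the Prdm6-deficient vessels and 2 for the difference. Over all tested genes, the count between the Prdm6-deficient vessels was 44 and became 134 with DESeq2, 83 with those libraries alone, 70 with the animal as a limma-voom block, 16 with the replicate block, 15 without the pooled samples and as few as 22 with 1 library left out (Prdm6-deficient aorta replicate 2; 25 to 29 without Prdm6-deficient DA replicate 1 or 2 or Prdm6-deficient aorta replicate 1, 4 or 5). Fitting the aorta alone gave 702 in place of 404 between its genotypes. In the first series 147 genes passed in the DA and 2 between the Prdm6-deficient vessels; in the second series 419 passed in the DA in place of 894, 226 in the aorta in place of 404, 6 between the Prdm6-deficient vessels and 166 for the difference in place of 425. At the looser threshold the 5 comparisons gave 2036, 829, 1869, 149 and 856 genes. The listed genes Siah2, Cited2, Pfkp, Stc2, Edn1, Ndufa4l2 and Hsp90aa1 missed the threshold between the DA genotypes in the first series, and Siah2, Hsp90aa1 and Plod2 in the second, with unchanged direction. Within the second series Ndufa4l2 and Car9 missed it between the control vessels, and Pfkp, Ndufa4l2 and Car9 for the difference of the genotype effect. Each series held fewer samples, and the cause of these changes was not tested. With the control libraries fitted alone, Ndufa4l2 (edgeR adjusted p = 0.028) and Car9 (0.016) missed it between the control vessels. For the difference, Car9 also missed it without the low-count filter (edgeR adjusted p = 0.018), without the pooled samples (0.019) and without most single libraries. The first series held 1 control aorta, so its aorta and control vessel comparisons were not run.

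Replicate numbers of the labels mostly join different animals. Libraries of the same number correlated at -0.054 to 0.13 in their deviations from the group means (28 pairs), and libraries of the same animal at -0.02 to 0.08 (10 pairs). With the replicate block the DA genotype difference of Egln3 had the same call and Cited2 missed the threshold with an adjusted p of 0.011, and 780 genes passed in place of 894. With the length of the longest transcript in place of merged exons, the Egln3 share in Prdm6-deficient DA was 17.4% in place of 19.9%.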
